A study of Ovis aries with 24 samples.

Results

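FSHB, the gene of the beta subunit of follicle-stimulating hormone (FSH), was followed as 1 annotated feature (ENSOARG00000015425) of 27054 in sheep pituitary cultures, chosen by its name in the count tables. FSH is a heterodimer of a beta subunit found in no other hormone and the alpha subunit encoded by CGA, which it shares with luteinizing hormone (beta subunit LHB) and thyroid-stimulating hormone (beta subunit TSHB). FSHB transcription is restricted to gonadotropes, is driven by activins of the pituitary itself, which signal through type I and type II receptors and SMAD proteins, and is held back by follistatin, which binds activin, and by inhibin. Ovarian estradiol is known in sheep to lower FSH by acting on the pituitary as well as on the hypothalamus.

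All cells came from dispersed pituitaries of ovariectomized ewes of the Western white faced breed. 24 hours after dispersal the cultures received an adenovirus in which expression of green fluorescent protein is targeted to gonadotropes, and 3 days after infection they were treated for 6 h. Of the 4 groups of 6 libraries, sorted_E2 was given 10 nM estradiol (E2) and held cells collected by fluorescence-activated sorting, and sorted_vehicle was given ethanol and sorted likewise. unsorted_E2 had the same 10 nM E2 and unsorted_vehicle the same ethanol, without selection of fluorescent cells. The labels number the libraries 1 to 6 in each group and do not say whether a number stands for an animal or a culture, so p-values measure the spread between these libraries, which may be technical. In counts centred on the group means, same-numbered libraries deviated together, and the number was therefore also used as a block, here called the replicate block.

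Library totals were 4.19 M to 6.19 M counts for numbers 1 to 3 and 19.2 M to 37 M counts for numbers 4 to 6 (M, mega), with 3 libraries of each set in each group. FSHB rested on 72 to 4414 counts per library, so that counting error was between 1.5% and 11.8%. The summed level of the 4 measured gonadotrope markers other than FSHB (CGA, LHB, GNRHR and NR5A1) was 2570 to 4964 CPM (read counts scaled to library size) in sorted_E2, 2394 to 5348 in sorted_vehicle, 264.8 to 1499 in unsorted_E2 and 256.04 to 1289 in unsorted_vehicle. Sorted libraries were not free of other pituitary cells: the 6 lactotrope markers, prolactin among them, summed to 57516 to 153464 CPM in sorted_E2 and 68725 to 176509 CPM in sorted_vehicle, against 42493 to 99887 CPM in unsorted_E2 and 40428 to 93599 CPM in unsorted_vehicle. Other endocrine sums were also higher by median in sorted cells. The somatotrope sum had medians of 30334 CPM in sorted_E2 and 15511 in unsorted_E2, and 29212 in sorted_vehicle and 15832 in unsorted_vehicle. The corticotrope medians were 338 and 207 CPM under E2, and 294 and 178 under vehicle. The 10 fibroblast and pericyte markers, by contrast, summed to 696.4 to 1687 CPM in sorted_E2 and 646.9 to 1411 CPM in sorted_vehicle, against 4083 to 8964 CPM in unsorted_E2 and 3567 to 9553 CPM in unsorted_vehicle.

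The first comparison asked what 6 h of E2 did to FSHB in the sorted cells. FSHB was lower with E2 in 6 of 6 pairs of equal number, to 55.4% of the vehicle level on average, which is 44.6% lower. In sorted_E2 the levels of libraries 1 to 6 were 47.4, 49.1, 106, 113, 122 and 48.9 CPM. In sorted_vehicle they were 80.0, 73.3, 210, 194, 213 and 113 CPM. Each E2 library lay below its numbered partner, but the groups overlapped, since libraries 3, 4 and 5 were high and the others low under both treatments. The mean was 81.0 ± 36.0 CPM in sorted_E2 and 147.1 ± 65.7 CPM in sorted_vehicle (SD, n = 6 each). In bulk libraries such as these, fewer gonadotropes and less FSHB RNA per gonadotrope cannot be told apart; the summed markers without FSHB differed between E2 and vehicle by -0.30 to 0.10 on the log2 scale over the 6 pairs. The lactotrope sum differed by -0.28 to 0.12. The thyrotrope sum differed by -0.34 to -0.02, but it includes CGA, as the gonadotrope sum does. The thyrotrope gene TSHB itself was lower with E2 in 6 of 6 pairs. Its log2 fold change with the replicate block was -0.30 (edgeR, adjusted p = 0.000122), and it did not pass without the block. The part of lactotropes and thyrotropes in the FSHB difference was not tested.

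**Figure D1:**
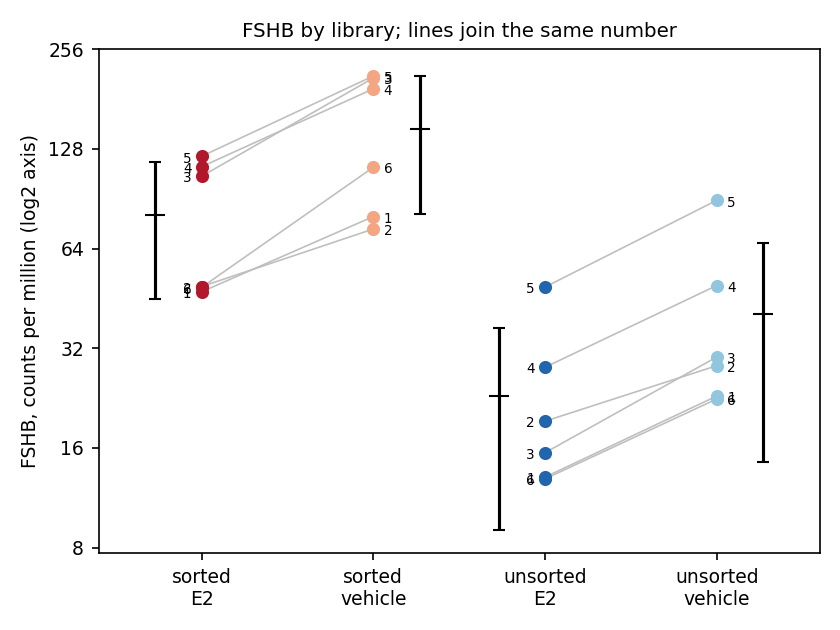
FSHB in CPM on a log2 axis in each of the 24 libraries, with the replicate number beside each point, grey lines joining equal numbers and black bars giving mean ± SD (n = 6). Every line runs down towards E2, by 0.56 to 1.2 log2 units, while libraries of 1 group differ by 2.57-fold to 3.98-fold.

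The 6 within-number differences in sorted cells, E2 minus vehicle in log2 CPM, were -0.75, -0.58, -0.99, -0.78, -0.81 and -1.20 for numbers 1 to 6. Their SD was 0.22, against an SD of 0.67 between the sorted_E2 libraries and 0.71 between the sorted_vehicle libraries. Whether FSHB passed the test therefore turned on the pairing. With edgeR's quasi-likelihood test and no block the log2 fold change was -0.83 ± 0.35 (SE) with an adjusted p of 0.598, beside 196 of 14334 genes called (1.37%), 159 of them higher (1.11%) and 37 lower (0.258%). With the replicate block FSHB fell by 0.84 ± 0.06 on the log2 scale (edgeR, adjusted p = 7.14e-08, 95% interval -0.97 to -0.71), where 13.2% of genes were called, 7.03% higher and 6.2% lower, and it ranked 80 of 14334 genes by p. Within numbers 1 to 3 alone the blocked value was -0.77, and within the deeper numbers 4 to 6 it was -0.90. The authors' deposited table gives FSHB a log2 fold change of -0.82 with a false discovery rate of 0.249 for this comparison.

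In unsorted cells the same difference was seen at a lower level of FSHB. In unsorted_E2 libraries 1 to 6 held 13.1, 19.3, 15.5, 28.03, 49.0 and 12.9 CPM. In unsorted_vehicle they held 22.9, 28.3, 30.1, 49.5, 89.5 and 22.5 CPM. Number 5 was the highest library of its group in 4 of 4 groups, and the unsorted groups overlapped although each E2 library was below its partner. The means were 22.9 ± 13.9 CPM in unsorted_E2 and 40.5 ± 26.0 CPM in unsorted_vehicle (SD, n = 6 each), and the paired decrease averaged 42.7%.

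The paired log2 differences in unsorted cells were -0.81, -0.56, -0.96, -0.82, -0.87 and -0.80 for numbers 1 to 6, with an SD of 0.13 against 0.75 between unsorted_E2 and 0.77 between unsorted_vehicle libraries. Without the block the edgeR value was -0.81 ± 0.39 (adjusted p = 1.00), beside 37 of 15083 genes called (0.245%), 0.212% of genes being higher and 5 genes lower (0.0331%). With the replicate block FSHB fell by 0.82 ± 0.06 on the log2 scale (edgeR, adjusted p = 1.47e-08, 95% interval -0.94 to -0.70) and ranked 8 of 15083 genes by p, where 5.24% of genes were called, 2.86% higher and 2.37% lower. With the block, numbers 1 to 3 alone gave -0.78 and numbers 4 to 6 alone gave -0.83. Without the block, 1 library moved the unsorted value most: it was -0.41 without unsorted_vehicle number 5, the highest of that group. The summed gonadotrope markers without FSHB moved the other way here, with E2 minus vehicle differences of 0.05 to 0.22 log2 units. This was not particular to them: the lactotrope sum differed by 0.07 to 0.28. The thyrotrope sum, which includes CGA as the gonadotrope sum does, differed by -0.004 to 0.28. The part of cell composition in the unsorted FSHB difference was not tested. The authors' deposited table gives FSHB -0.83 here, with a false discovery rate of 1.

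The E2 effects on FSHB in sorted and unsorted cells were set against each other directly. The difference of the log2 effects, sorted minus unsorted, was -0.02 ± 0.57 without the block (edgeR, adjusted p = 1.00) and -0.03 ± 0.09 with it (adjusted p = 0.953), with a blocked 95% interval of -0.21 to 0.16. Any difference in response was not detectable within that interval. Number by number the difference was 0.06, -0.02, -0.03, 0.04, 0.06 and -0.40, so number 6 stood apart with the larger decrease in sorted cells. In an exact sign-flip test over the 6 numbers the mean of -0.05 gave p = 0.875.

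**Figure D2:**
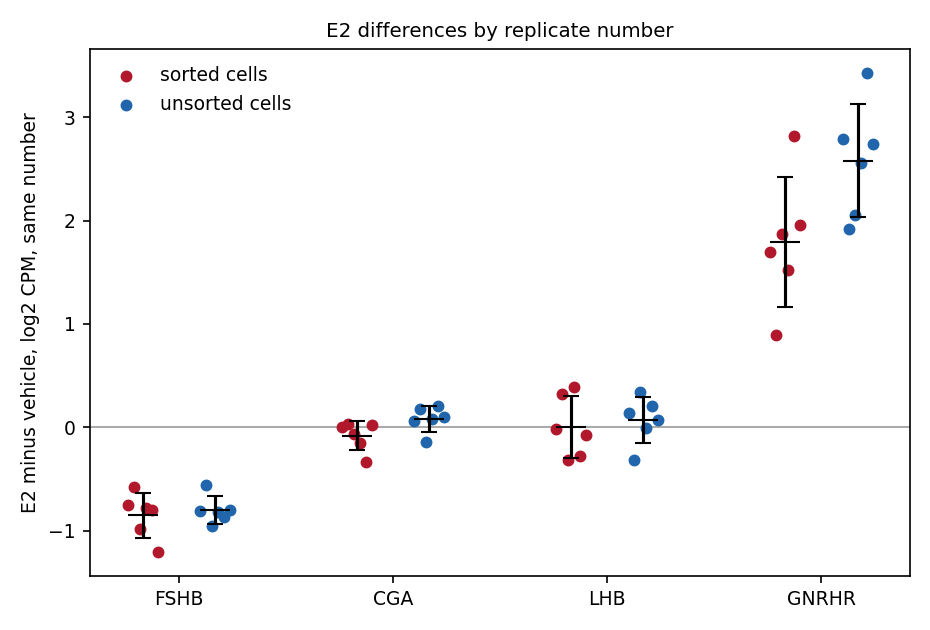
E2 minus vehicle in log2 CPM for each of the 6 replicate numbers in sorted cells (red, left) and unsorted cells (blue, right), with mean ± SD bars, for FSHB, CGA, LHB and GNRHR. All 12 FSHB points lie below 0, CGA and LHB scatter around 0, and all 12 GNRHR points lie above 0.

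The other gonadotropin subunits did not pass the test under E2, and their blocked intervals lay above the FSHB values. CGA, which encodes the common alpha subunit, averaged 2604 ± 579 CPM in sorted_E2 and 2787 ± 758 CPM in sorted_vehicle, and 457.6 ± 208 CPM in unsorted_E2 and 423.4 ± 177 CPM in unsorted_vehicle (SD, n = 6 each). With the block its log2 fold change was -0.05 ± 0.04 in sorted cells (edgeR, adjusted p = 0.527) and 0.09 ± 0.05 in unsorted cells (adjusted p = 0.410), with 95% intervals of -0.14 to 0.04 and -0.01 to 0.18. LHB, the beta subunit of luteinizing hormone, averaged 1007 ± 469 CPM in sorted_E2 and 1029 ± 527 CPM in sorted_vehicle, and 269.9 ± 245 CPM in unsorted_E2 and 251.1 ± 213 CPM in unsorted_vehicle. Its blocked log2 fold change was 0.03 ± 0.12 in sorted cells (adjusted p = 0.929) and 0.07 ± 0.06 in unsorted cells (adjusted p = 0.649), with intervals of -0.27 to 0.33 and -0.05 to 0.20. GNRHR, the receptor for gonadotropin-releasing hormone, rose by 1.98 ± 0.38 in sorted cells (edgeR without the block, adjusted p = 0.0175) and by 2.86 ± 0.44 in unsorted cells (adjusted p = 0.0157), with adjusted p up to 0.0539 and 0.0665 when 1 library was left out. It averaged 21.6 ± 12.2 CPM in sorted_E2 against 5.61 ± 2.24 CPM in sorted_vehicle. In unsorted_vehicle GNRHR was near the floor, at 0.46 to 1.08 CPM. Libraries 1 to 6 of that group held 5, 3, 4, 18, 36 and 17 GNRHR counts, which limits the precision of the unsorted fold change. Of the 13 listed gonadotrope genes, 9 have a feature; beyond FSHB, 6 were tested in sorted and 7 in unsorted cells, and GNRHR rose in each fraction with the block as well.

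FSHB was then expressed relative to the other subunits within a library, which removes library size. These ratios are of read counts not divided by transcript length, so they can be compared between groups but not read as ratios of molecules. Per 100 LHB counts, sorted_E2 libraries 1 to 6 held 11.2, 7.75, 9.52, 7.03, 8.33 and 6.06 FSHB counts. The sorted_vehicle libraries held 18.7, 14.4, 15.1, 15.8, 11.99 and 13.3. The sorted groups did not overlap, and the means were 8.32 ± 1.84 in sorted_E2 and 14.9 ± 2.32 in sorted_vehicle (SD, n = 6 each). The difference of -0.85 log2 units gave p = 0.00216 in a 2-sided exact permutation test, the smallest value that 6 against 6 can give, and 0.0325 after adjustment over the 15 exact tests made.

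In unsorted cells FSHB per 100 LHB counts was 8.57, 18.9, 15, 7.17, 6.81 and 8.49 in unsorted_E2 libraries 1 to 6. In unsorted_vehicle it was 16.6, 22.3, 36.9, 12.6, 14.4 and 15.6. Libraries 2 and 3 were high under both treatments and the groups overlapped; the difference of -0.87 had an exact permutation p of 0.0303, or 0.114 adjusted. Per 100 CGA counts FSHB averaged 3.20 ± 1.504 in sorted_E2 and 5.43 ± 2.66 in sorted_vehicle, and 5.48 ± 2.67 in unsorted_E2 and 10.1 ± 4.89 in unsorted_vehicle. Those groups overlapped too, with exact permutation p-values of 0.0823 for the sorted and 0.0714 for the unsorted comparison. In paired form, each of the 4 ratio differences between E2 and vehicle had the same sign in 6 of 6 pairs, giving an exact sign-flip p of 0.03125, the smallest that 6 pairs allow, and 0.0469 adjusted.

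**Figure D3:**
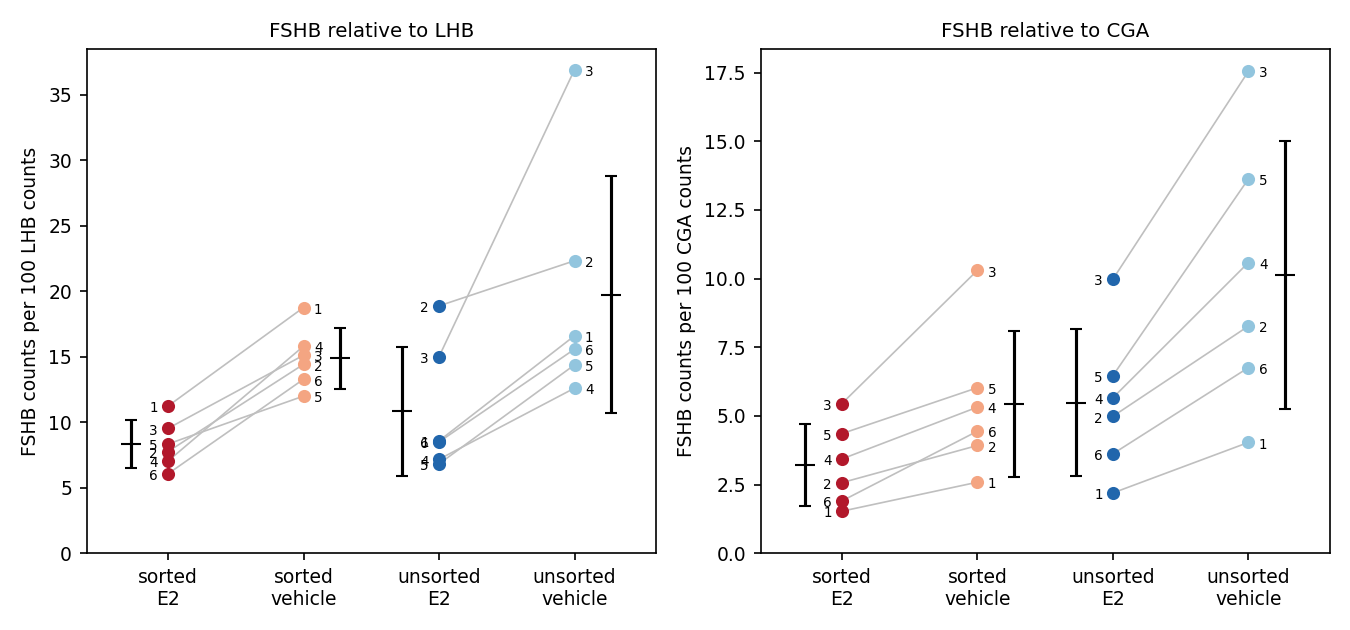
FSHB counts per 100 LHB counts (left) and per 100 CGA counts (right) in each library, numbered by replicate, with grey lines joining equal numbers and mean ± SD bars (n = 6). On the left the 6 sorted_E2 points (6.06 to 11.2) lie below the 6 sorted_vehicle points (11.99 to 18.7), and on the right unsorted libraries lie above the sorted libraries of equal number and treatment.

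FSHB was higher in sorted than in unsorted cells, by less than CGA. Within a treatment, FSHB was higher in sorted than in unsorted cells by 1.85 ± 0.38 log2 units under E2 (edgeR without the block, adjusted p = 0.00120) and by 1.86 ± 0.40 under vehicle (adjusted p = 0.00186). These comparisons differed widely: 51.8% of 14545 genes were called under E2 (25.8% of genes higher, 26% lower), and 50.2% of 14468 under vehicle (24.4% higher, 25.8% lower). The pair differences, sorted minus unsorted, ran from 1.31 to 2.77 under E2 and from 1.25 to 2.80 under vehicle, and number 3 was the highest in both. With the replicate block the values were 1.90 ± 0.18 under E2 (adjusted p = 2.92e-05) and 1.94 ± 0.20 under vehicle (adjusted p = 9.16e-05), where 65.7% of genes were called under E2 (33.9% higher, 31.8% lower) and 63.6% under vehicle (32.5% higher, 31.1% lower). The authors' deposited table, which runs unsorted over sorted, gives -1.86 under vehicle.

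In order, FSHB was highest in sorted_vehicle, then in sorted_E2, unsorted_vehicle and unsorted_E2. The ranges of neighbouring groups in that order overlapped at each of the 3 steps, whereas within equal numbers each step had the same direction in 6 of 6. CGA was higher in sorted cells by 2.56 ± 0.30 under E2 (adjusted p = 1.34e-05) and by 2.74 ± 0.28 under vehicle (adjusted p = 3.81e-06, edgeR without the block). FSHB per 100 CGA counts was lower in sorted than in unsorted cells in 6 of 6 pairs under each treatment, by 0.77 log2 units under E2 and 0.88 under vehicle. The exact permutation p-values were 0.102 for E2 and 0.0563 for vehicle, and each exact sign-flip p was 0.03125 (0.0469 adjusted). LHB, by contrast, was higher in sorted cells by 1.96 ± 0.52 under E2 (adjusted p = 0.00731) and 2.06 ± 0.53 under vehicle (adjusted p = 0.00698). FSHB per LHB differed by -0.30 under E2 (exact permutation p = 0.316) and -0.32 under vehicle (p = 0.247), with 4 of 6 pairs lower in each. CGA is also made by thyrotropes, and TSHB averaged 467.1 ± 307 CPM in sorted_E2 against 252.7 ± 98.9 CPM in unsorted_E2, and 574.5 ± 352 CPM in sorted_vehicle against 232.0 ± 87.2 CPM in unsorted_vehicle; the part of thyrotropes in the CGA ratio was not tested.

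Across libraries FSHB varied most like LHB among the 5 other hormone and receptor genes that were looked at. Over 24 libraries Pearson's r of log2 CPM with FSHB was 0.90 for LHB, 0.80 for CGA, 0.54 for the prolactin gene PRL, 0.39 for GNRHR and 0.12 for TSHB. After centring on the 4 group means it was 0.89 for LHB, 0.42 for CGA, 0.27 for GNRHR, 0.14 for PRL and -0.67 for TSHB. FSHB and LHB were both higher on average in sorted cells, and within the 12 sorted and the 12 unsorted libraries r with LHB was 0.78 and 0.74. These values are descriptions, since libraries of one number deviate together and library totals differ between numbers 1 to 3 and numbers 4 to 6.

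**Figure D4:**
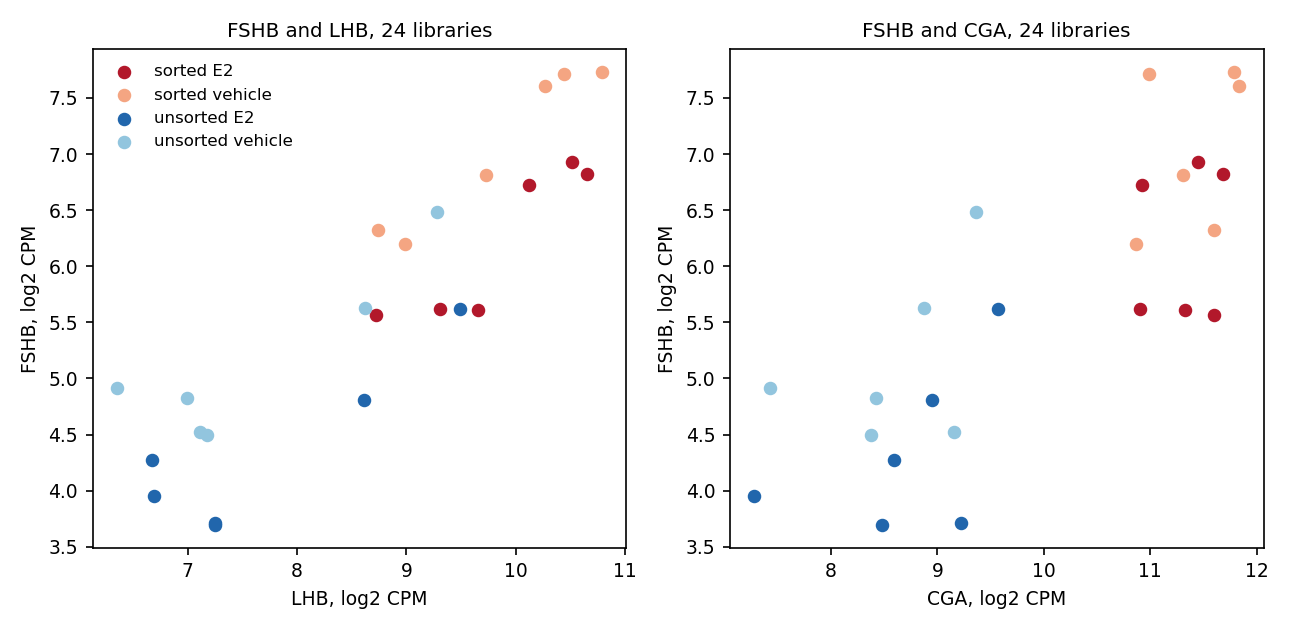
FSHB against LHB (left) and against CGA (right), both in log2 CPM, in the 24 libraries coloured by group. Against LHB the libraries form 1 rising band, whereas against CGA the sorted and unsorted libraries form 2 separate clouds.

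Of 9661 named genes averaging 5 CPM or more, the 5 with the highest r over 24 libraries were ARHGEF3 (0.96), SLC4A8 (0.94), FBXO10 (0.94), DTX1 (0.94) and RASAL1 (0.94). SLC4A8 encodes a sodium-driven bicarbonate exchanger, FBXO10 an F-box protein, DTX1 a Notch pathway ubiquitin ligase and RASAL1 a Ras GTPase-activating protein. ARHGEF3 averaged 45.6 CPM in sorted_E2, 58.9 in sorted_vehicle, 28.4 in unsorted_E2 and 34.3 in unsorted_vehicle. With the block it fell by 0.32 in sorted cells (edgeR, adjusted p = 0.000671) and by 0.27 in unsorted cells (adjusted p = 0.00957) on the log2 scale, a smaller decrease than that of FSHB. RASAL1 fell by 0.38 in sorted cells (adjusted p = 0.0136) and by 0.49 in unsorted cells (adjusted p = 0.00526), and DTX1 fell by 0.25 (adjusted p = 0.0476) and 0.43 (adjusted p = 0.0375). FBXO10 fell by 0.18 in sorted cells (adjusted p = 0.0287) and had -0.11 in unsorted cells (adjusted p = 0.438), and SLC4A8 had -0.20 (adjusted p = 0.0756) and -0.19 (adjusted p = 0.210). These genes were chosen for following FSHB over libraries of both treatments, so their direction under E2 is a description. After centring on group means the 5 nearest genes were ACOT11 (0.90), SMARCD2 (0.90), FBXO10 (0.90), LHB (0.89) and ACTL6B (0.89).

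Of the list of 42 genes of activin, inhibin and BMP signalling, 37 have a feature of that name and 35 were tested in sorted cells. Without the block 1 of the 35 was called, as lower, beside 1.37% of all genes called and 0.258% called lower. With the block 5 rose and 6 fell, beside 13.2% of all genes called, 7.03% higher and 6.2% lower. The median log2 fold change of the 35 with the block was -0.03, against 0.00 for all genes tested. In unsorted cells 0 of 36 passed either edgeR fit, where 5.24% of all genes did with the block; 0 had an unadjusted p under 0.05 without the block and 3 with it, and DESeq2 called 0. Follistatin (FST), which neutralizes activin, averaged 7.43 ± 1.61 CPM in sorted_E2 and 10.9 ± 1.66 CPM in sorted_vehicle and fell by 0.54 ± 0.10 with the block (adjusted p = 0.000655). INHBA and INHA, which encode the activin A subunit and the inhibin alpha subunit, did not pass in either cell fraction. INHA was low, at 2.17 ± 0.94 CPM in sorted_E2 and 2.05 ± 0.74 CPM in sorted_vehicle.

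Among the receptors and SMAD proteins, members moved both ways in sorted cells. ACVR1B, the type I receptor of activin, averaged 28.4 ± 3.69 CPM in sorted_E2 and 21.8 ± 1.40 CPM in sorted_vehicle, and rose by 0.41 ± 0.07 with the block (edgeR, adjusted p = 0.000195). SMAD3, which carries the activin signal to the nucleus, averaged 16.5 ± 4.75 CPM in sorted_E2 and 10.6 ± 3.22 CPM in sorted_vehicle, and rose by 0.65 ± 0.10 (adjusted p = 9.58e-05). SKI, a repressor that binds SMAD proteins, rose by 0.35 (adjusted p = 0.000181), and TGFBR3, the betaglycan co-receptor that binds inhibin, rose by 0.63 (adjusted p = 0.000299). ACVR1, a type I receptor used by BMPs, fell by 0.33 ± 0.07 without the block (adjusted p = 0.0420, up to 0.122 with 1 library left out) and by 0.35 with it. SMAD1, which transmits BMP signals, fell by 0.36 with the block (adjusted p = 0.000131), and SMAD6, BMPR1A and BMPR2 fell as well.

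In the direct test of the difference between fractions, with the block, the E2 effects on ACVR1B (0.41, adjusted p = 0.0177), SMAD3 (0.70, adjusted p = 0.00207) and SKI (0.37, adjusted p = 0.00387) were more positive in sorted than in unsorted cells. Those on FST (-0.51, adjusted p = 0.0287), ACVR1 (-0.28, adjusted p = 0.0460) and SMAD1 (-0.30, adjusted p = 0.0276) were more negative. Without the block, 0 of the 35 list members passed that edgeR test (4 had an unadjusted p under 0.05, and DESeq2 called 0), in which 4 of 15134 genes passed (0.0264%), all of them higher. With it 2.36% of genes passed, 1.66% higher and 0.7% lower.

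**Figure D5:**
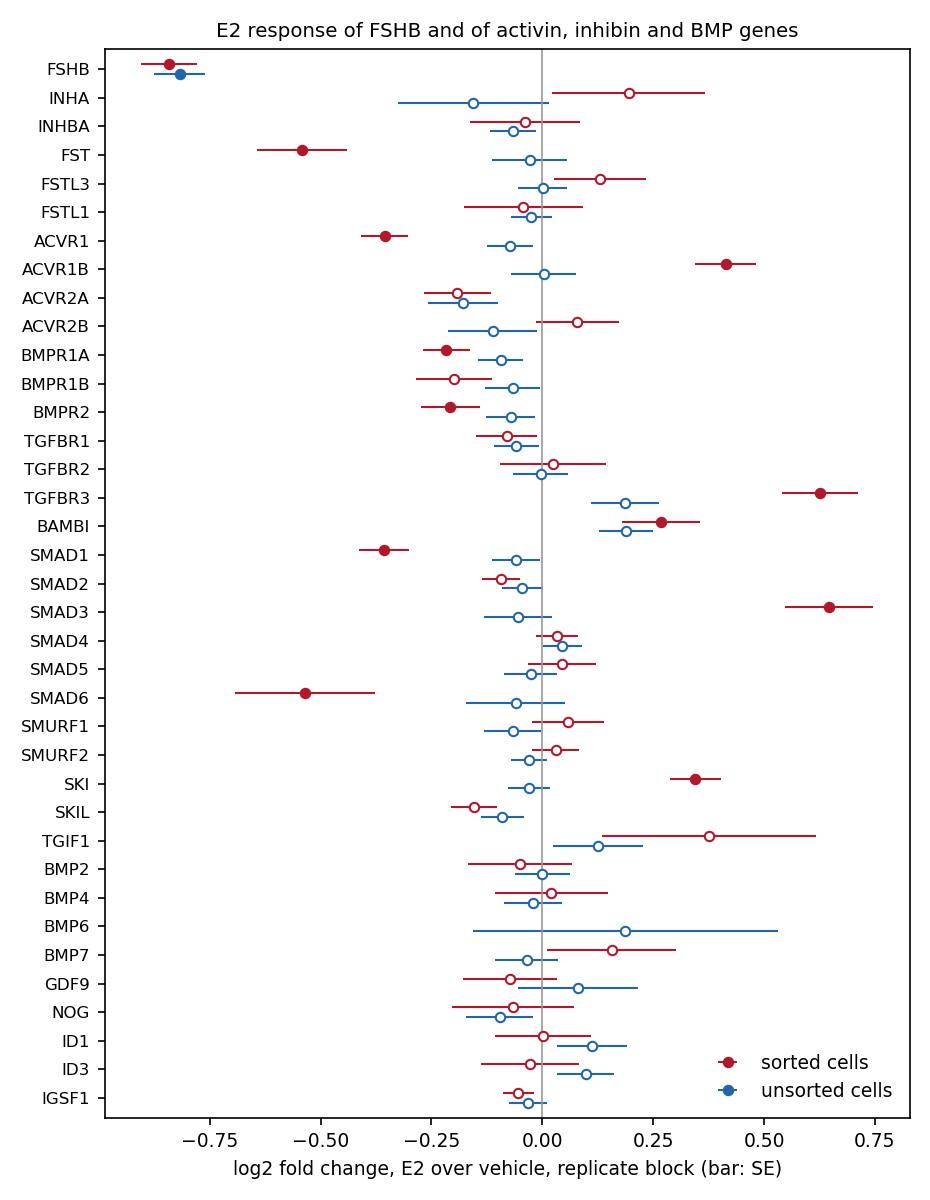
Log2 fold change of E2 over vehicle with the replicate block, ± SE, in sorted cells (red, upper) and unsorted cells (blue, lower) for FSHB and the tested genes of activin, inhibin and BMP signalling, with filled points for an adjusted p under 0.05. FSHB is filled at -0.84 in sorted and -0.82 in unsorted cells, and the other 11 filled points belong to sorted cells.

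Of 32 transcription factors and cofactors studied on FSHB promoters in other work, mostly in rodents, 26 were tested in sorted cells; without the block 1 rose and 1 fell, beside 1.37% of all genes called, and with it 3 rose and 7 fell, beside 13.2%. In unsorted cells 27 were tested, and with the block 2 rose and 2 fell, beside 5.24% of all genes. JUN, an AP-1 subunit, fell in sorted cells by 0.66 ± 0.13 without the block (edgeR, adjusted p = 0.0255, up to 0.0747 with 1 library left out), to 80.7 ± 12.5 CPM in sorted_E2 against 130.0 ± 22.4 CPM in sorted_vehicle. FOS, its AP-1 partner, averaged 209.4 ± 68.5 CPM in sorted_E2 and 395.0 ± 110 CPM in sorted_vehicle and fell by 0.90 with the block (adjusted p = 0.0248), but in unsorted cells it rose by 0.29 (adjusted p = 0.0120).

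HDAC4, a class IIa histone deacetylase, rose in sorted cells by 1.00 ± 0.20 without the block (edgeR, adjusted p = 0.0259, up to 0.0783 with 1 library left out), to 21.3 ± 6.83 CPM in sorted_E2 against 10.9 ± 2.16 CPM in sorted_vehicle. In unsorted cells it rose by 0.42 with the block (adjusted p = 0.00741). LHX3, a LIM homeodomain factor, rose in sorted cells by 0.36 (adjusted p = 0.00350) and fell in unsorted cells by 0.49 (adjusted p = 0.000563), with a difference of 0.85 (adjusted p = 0.000288, all with the block). NR5A1, steroidogenic factor 1, did not pass, at -0.02 ± 0.08 in sorted cells with the block (adjusted p = 0.908). FOXL2 and GATA2, the other gonadotrope factors of the list, are not analysed here.

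Immediate-early genes of this list also moved with sorting, in both directions. FOSL1 was lower in sorted cells under vehicle, at -1.51 to -1.35 log2 units with 1 library left out (edgeR without the block, adjusted p at most 2.03e-05). FOS was higher in sorted than in unsorted cells by 2.94 under E2 and 4.12 under vehicle, and EGR1 by 3.595 under E2 and 4.23 under vehicle (log2, edgeR without the block, adjusted p at most 5.26e-07). Under E2 11 of the 26 tested members were higher and 4 lower in sorted cells, beside 25.8% and 26% of all genes, and under vehicle 11 were higher and 3 lower, beside 24.4% and 25.8%. EGR1 averaged 147.7 ± 55.7 CPM in sorted_E2 and 232.7 ± 75.1 CPM in sorted_vehicle, against 12.4 ± 3.33 CPM in unsorted_E2 and 12.1 ± 4.35 CPM in unsorted_vehicle. The part of these genes in any FSHB value was not tested.

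Of the 11 listed receptors of steroids, GnRH and PACAP, 6 were tested in sorted and 7 in unsorted cells; with the block 3 rose and 1 fell in sorted cells, beside 13.2% of all genes called, and 2 rose and 1 fell in unsorted cells, beside 5.24%. Without the block 1 rose and 0 fell in each fraction, beside 1.37% of all genes in sorted and 0.245% in unsorted cells. ESR1, estrogen receptor alpha, averaged 36.8 ± 3.43 CPM in sorted_E2 and 50.3 ± 7.73 CPM in sorted_vehicle, and with the block fell by 0.45 ± 0.06 in sorted cells (edgeR, adjusted p = 3.67e-05) and by 0.67 ± 0.07 in unsorted cells (adjusted p = 1.84e-06). It did not pass in either fraction without the block. Of the 20 folding and secretion genes, most did not pass under E2: without the block 1 rose in each fraction, beside 1.37% of all genes called in sorted and 0.245% in unsorted cells. With it 2 rose in each while 3 fell in sorted and 1 in unsorted cells, beside 13.2% and 5.24% of all genes. In sorted cells RAB27A fell by 0.24 (adjusted p = 0.000389), SYT1 by 0.13 (adjusted p = 0.0445) and SCG3 by 0.12 (adjusted p = 0.0156), and in unsorted cells PCSK1, a prohormone convertase, fell by 0.39 (adjusted p = 0.0254, edgeR with the block). The pair that rose, B4GALNT3 and CHST8, encode a transferase for N-acetylgalactosamine and a sulfotransferase of that sugar, which together build the sulfated glycans of pituitary hormones, best known on luteinizing hormone. B4GALNT3 averaged 31.0 ± 13.02 CPM in sorted_E2 and 11.1 ± 4.203 CPM in sorted_vehicle, and rose with the block by 1.46 ± 0.09 in sorted cells (adjusted p = 1.06e-09) and by 1.57 ± 0.08 in unsorted cells (adjusted p = 2.59e-10). CHST8 averaged 98.1 ± 32.3 CPM in sorted_E2 and 47.9 ± 16.4 CPM in sorted_vehicle, and rose by 1.09 in sorted cells (adjusted p = 0.00951) and by 1.09 in unsorted cells (adjusted p = 0.00128). The chaperones PDIA3, PDIA4, PDIA6, P4HB, CANX, CALR, HSPA5 and HSP90B1, which fold secreted glycoproteins, did not pass in either fraction.

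Several ligands and follistatin-like genes of the activin and BMP pathways were lower in sorted cells, where FSHB was higher. Of the 35 tested members, 6 were higher and 17 lower in sorted than in unsorted cells under E2, and 7 higher and 17 lower under vehicle (edgeR without the block). Of all genes, 25.8% were called higher and 26% lower under E2, and 24.4% higher and 25.8% lower under vehicle. The median of the 35 members was -0.36 under E2 and -0.41 under vehicle, against 0.01 and 0.02 for all genes tested. INHBA was lower in sorted cells by 2.44 ± 0.23 log2 units under E2 (adjusted p = 2.29e-06) and 2.49 ± 0.17 under vehicle (adjusted p = 1.05e-07), at 11.4 ± 4.48 CPM in sorted_E2 against 64.2 CPM in unsorted_E2. The follistatin-like genes FSTL3 and FSTL1 and the ligands BMP2 and BMP4 were lower in sorted cells as well, by 1.83 to 2.72 log2 units under vehicle. ACVR1B was higher in sorted cells by 1.16 under E2 and 0.76 under vehicle, the type II receptor ACVR2B by 1.09 under E2 and 0.87 under vehicle, and TGFBR3 by 1.90 under E2 and 1.40 under vehicle. Most fibroblast and pericyte markers moved with these decreases, 6 of 9 tested being lower in sorted cells under each treatment. Of the same 9, 0 were higher under E2 and 1 was higher under vehicle. The part of fibroblasts and pericytes was not tested.

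The genes next to FSHB in the order of the RefSeq sheep assembly ARS-UI_Ramb_v3.0 did not pass the test under E2. ARL14EP, the neighbour on one side at 60.3 CPM over all libraries, had a blocked log2 fold change of -0.03 in sorted cells (edgeR, adjusted p = 0.807) and 0.02 in unsorted cells (adjusted p = 0.896). KCNA4, the potassium channel gene on the other side at 2.89 CPM, had -0.27 in sorted cells (adjusted p = 0.234) and 0.05 in unsorted cells (adjusted p = 0.953). Under vehicle and without the block, KCNA4 was higher in sorted than in unsorted cells by 1.77 (edgeR, adjusted p = 0.0043). ARL14EP was higher by 0.43 in the same test (adjusted p = 0.0268), in which 24.4% of all genes were called higher.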

How the data were processed

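Bulk RNA libraries (TruSeq kit, 500 ng of total RNA) of 24 samples in 4 groups of 6 were measured. The authors deposited whole-number read counts per gene in 3 tables, made with featureCounts 1.5.1 per the submitters' processing notes; which aligner, build or strand setting was used is not given in the sources used here. Hence no coordinates are printed and overlapping genes cannot be told apart. The 12 vehicle libraries stand in 2 tables with 0 differing values. The authors' deposited comparison tables hold p-values, false discovery rates and log2 values (fold changes and mean levels), quoted only where named.

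Each comparison was fitted over all genes with edgeR 4.0.16 in R 4.3.3 (TMM, filterByExpr, robust quasi-likelihood F-test, 2-sided, Benjamini-Hochberg threshold 0.05) on the libraries of the groups compared, without and with the replicate number as a block; the fits were tested on simulated data. For the difference of E2 effects, the block was instead the number within sorted cells and, separately, within unsorted cells. CPM and log2 CPM (prior count 0.5) use TMM-scaled library sizes. FSHB level and ratios were compared by 2-sided exact permutation and sign-flip tests (scipy 1.17.1), adjusted over 15. DESeq2 1.42.0, other scalings, no filter, depth sets and left-out libraries were alternatives. Numbers were taken to pair libraries because 24 of 24 same-number pairs correlated after group centring (r = 0.291 to 0.859) and 24 of 24 correlated best with their own number.

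The members and lists were chosen with earlier results of these data known. Named genes are, per list and comparison, up to 6 with the smallest p, plus CGA, LHB and GNRHR; SMAD6, BMPR1A, BMPR2, TGFBR3, ACVR2B, INHA, TSHB, the chaperones, and any gene named in a comparison outside its 6 were added after their values were seen. FOXL2, GATA2, GREM1, TGFBR3L, INHBB, SMAD7, ID2, NFYB, USF1, JUND, GPER1, PGR, NR3C2 and ADCYAP1 are not analysed here. The result of 1 listed gene is not reported here. Counting error covers only sampling of reads.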

Additional observations from a re-analysis of the deposited data

Results flagged for a closer look

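In 39 groups of 6 values tested for a value far from the others (chance gives about 1 in 20), number 6 of the FSHB level had an E2 effect in sorted minus unsorted cells of -0.40 log2 units, far below the other 5 numbers. GNRHR in sorted_vehicle had 1 library far above the others, at 9.96 CPM. With the replicate block, the E2 effect differed between sorted and unsorted cells (edgeR interaction test, sorted minus unsorted, log2) for SKI by 0.37, ACVR1B by 0.41, HDAC4 by 0.63, SMAD3 by 0.70 and LHX3 by 0.85, and for ACVR1 by -0.28, SMAD1 by -0.30, FST by -0.51, JUN by -0.53 and FOS by -1.20.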

How the results depend on the processing

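The FSHB decrease with E2 kept its direction under every alternative run. It passed the threshold only in fits with the replicate block. These were the fit of all numbers (-0.84 sorted, -0.82 unsorted) and those within numbers 1 to 3 (-0.77, -0.78) and 4 to 6 (-0.90, -0.83), which also used the block. It did not pass under the alternatives without the block (DESeq2 adjusted p 0.290 and 1.00). With the block and 1 number left out it was -0.85, -0.88, -0.82, -0.88, -0.85 and -0.76 in sorted cells and -0.81, -0.84, -0.80, -0.81, -0.80 and -0.82 in unsorted cells. Leaving out 1 library or number gave -0.97 to -0.69 sorted and -1.18 to -0.41 unsorted; the unsorted value was -0.41 without unsorted_vehicle number 5. The sorted over unsorted difference ran from 1.70 to 2.21 under E2 and 1.72 to 2.26 under vehicle, past the threshold each time. The difference of E2 effects ran from -0.43 to 0.35, was 0.0074 in numbers 1 to 3 and 0.076 with the block without number 6.

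Exact tests that became past the threshold when paired, as a replicate block, were those of FSHB level under E2 (-0.85 sorted, -0.80 unsorted), FSHB per CGA under E2 (-0.77, -0.88) and with sorting (-0.77 under E2, -0.88 under vehicle) and FSHB per LHB under E2 in unsorted cells (-0.87). With 1 library left out, FSHB level under E2 ran from -1.02 to -0.72 sorted and -1.06 to -0.53 unsorted. The exact permutation adjusted p of these reached 0.169 and 0.279. With sorting the level ran from 1.73 to 2.12 under E2 and 1.79 to 2.19 under vehicle. Each sorting comparison missed the threshold in 9 of 12 such runs (exact permutation, adjusted p up to 0.0649). With 1 number left out, the difference of E2 effects on the level ran from -0.071 to 0.022. FSHB per LHB ran from -1.06 to -0.67 in unsorted cells and from -0.10 to 0.16 for the difference.

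Genes called in sorted cells under E2 (196) were 1896 with the block, 505 with the depth set, 563 in numbers 1 to 3 with the block, 1277 in 4 to 6 with the block, 387 by DESeq2 and 125 to 208 with a library left out. In unsorted cells (37) they were 790, 143, 67, 730, 122 and 11 to 48, and 73 with all 24 libraries in the fit. For the difference of effects (4) they were 357, 15, 22, 162, 16 and 0 to 4, and 0 without the filter. The value of LHB, E2 against vehicle in sorted cells, was 0.0011 and turned to -0.0041 with DESeq2 size factors, -0.0017 without the filter, -0.014 with the depth set, -0.0026 with all libraries and -0.0054 by DESeq2; with a library left out it ran from -0.19 to 0.22, and -0.47 to 0.60 in unsorted cells. The value of CGA, E2 against vehicle in sorted cells, was 0.017 in numbers 1 to 3, and with a library left out CGA ran from -0.16 to 0.024 sorted and -0.084 to 0.29 unsorted.

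Unblocked calls of list genes were less firm. With 1 library left out, adjusted p reached 0.122 for ACVR1, 0.0747 for JUN, 0.0783 for HDAC4 and 0.125 for CHST8 in sorted cells, lost without 10, 8, 8 and 9 of 12 libraries. GNRHR missed the threshold without sorted_vehicle 2, 3 or 6 (up to 0.0539) and without unsorted_vehicle 4 or 6 (up to 0.0665), and B4GALNT3 in unsorted cells without unsorted_vehicle 4 or 6 or unsorted_E2 5 (up to 0.0657). The block changed the calls stated beside each result; the cause was not tested. FSHB counts of 72, 114 and 93 in unsorted_E2 numbers 1 to 3 limit precision there.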
